A study of Mus musculus with 49 samples.

Results

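The 37 genes described here encode presynaptic machinery that docks synaptic vesicles, fuses them with the plasma membrane and retrieves their membrane afterwards. They were taken by gene symbol and sorted into 5 roles, with 4 calcium sensors, 8 genes of the SNARE machinery, 11 vesicle proteins, 10 active zone genes and 4 endocytosis genes. All 37 were found among the 45252 genes of the count table, and all 37 were among the 18220 genes that passed the filter on low counts.

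An action potential that reaches a nerve terminal opens calcium channels, and calcium bound by synaptotagmins triggers the zippering of vesicle and membrane SNARE proteins that merges both membranes. The active zone is the protein scaffold that holds vesicles close to those channels, and Munc13 proteins there prime docked vesicles for fusion. After release, dynamin, amphiphysin and synaptojanin recover the vesicle membrane. Most of these genes belong to small families whose members are used by different neurons and synapses of the cortex.

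Bulk mRNA was sequenced from the neocortex of 49 mice of C57BL/6J x C3H/HeJ mixed stock, killed at 28.5 weeks of age. The rNLS8 mice carried NEFH-tTA and tetO-hTDP43ΔNLS, so that human TDP-43 without a working nuclear localization signal was made after doxycycline was withdrawn at 25.5 weeks, 3 weeks before tissue was taken. The neurofilament heavy chain promoter limits the transgene to the neurons in which it is active. All control mice carried the tetO-hTDP43ΔNLS allele without the driver and also stopped receiving doxycycline. Injections began at 8 weeks of age, and each carried 40 µg of peptide or PBS in its place. The groups were ctrl-PBS (17 control mice), TDP-PBS (10 rNLS8 mice), TDP-10+12 (10 rNLS8 mice given peptides 10 and 12 of TDP-43 together) and TDP-15 (12 rNLS8 mice given peptide 15). Each mouse was a separate animal and gave 1 library. Values are given as CPM, counts relative to a common library size after scaling for library composition, and each group by its lowest, median and highest mouse.

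Libraries held 17775738 to 21033608 counts (median 19955601). Mouse Tardbp, the gene of TDP-43, had a mean of 146 ± 9.27 CPM (SD, n = 17) in ctrl-PBS and 118 ± 14.05 (SD, n = 10) in TDP-PBS; whether reads of the human transgene entered this count is not given in the sources used here. Of the marker lists, TDP-PBS had 5 of 11 pan-neuronal genes lower and 2 higher against ctrl-PBS, and their summed level spanned 6934 to 7966 CPM in ctrl-PBS and 6834 to 7876 in TDP-PBS. The counts lower and higher were 3 and 1 of 8 for excitatory neurons, 2 and 0 of 7 for parvalbumin interneurons, 3 and 1 of 9 for all inhibitory neurons, 2 and 1 of 8 for astrocytes, 0 and 8 of 10 for microglia and 0 and 1 of 8 for oligodendrocytes. Markers of neighbouring regions gave 0 and 0 of 2 for cerebellum, 0 and 0 of 6 for striatum (2 and 0 in TDP-15), 1 and 1 of 6 for thalamus, 1 and 0 of 4 for dentate gyrus and 4 and 0 of 5 for olfactory bulb. The olfactory bulb markers summed to over 10 CPM in 10 mice (5 ctrl-PBS, 0 TDP-PBS, 2 TDP-10+12 and 3 TDP-15), and results that move with them are given with and without these mice.

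As a group, the presynaptic genes were lower in rNLS8 neocortex. In TDP-PBS against ctrl-PBS, 29 of the 37 were lower and 2 higher, where 21.6% of all genes tested were lower and 21.9% higher (edgeR's quasi-likelihood test, Benjamini-Hochberg adjusted p under 0.05 over all 18220 genes). The median log2 fold change was -0.28 over the 37 genes and -0.00 over all genes tested. Since these genes are abundant, the share was also set beside the 5857 genes at or above the mean level of the least abundant of them (29.3 CPM), of which 33.3% were lower and 25% higher. A fall of more than 0.5 on the log2 scale was reached by 12 of the 37, against 5.41% of all genes. Scaling libraries on the 11 pan-neuronal markers instead moved the median of all genes by 0.11, and 22 of the 37 were then lower and 3 higher, with a median of -0.17, where 12.3% of all genes were lower and 33.8% higher. Under that scaling, Syn2, Syngr1, Pclo, Erc1, Ppfia2, Ppfia3 and Bin1 lost their TDP-PBS calls, and Cplx1 passed as higher (0.14, adjusted p = 0.00853).

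Both immunized groups gave similar counts. In TDP-10+12 against ctrl-PBS, 28 of 37 were lower and 1 higher, beside 20% and 20.8% of all genes, with a median of -0.25, and 10 fell by more than 0.5 (4.56% of all genes). In TDP-15 against ctrl-PBS, 30 were lower and 1 higher, beside 23.2% and 23.6%, with a median of -0.34, and 12 fell by more than 0.5 (5.67% of all genes). The 3 comparisons share the ctrl-PBS mice and are therefore not independent. Scaled on the pan-neuronal markers, 22 were lower and 2 higher in TDP-10+12 (11.6% and 32% of all genes) and 23 and 4 in TDP-15 (12.7% and 37.4%). In each of the 3, 27 genes were lower, which 16.1% of all genes also were, and Syngr3 was higher, which 16.7% of all genes also were. Syngr3 lost its TDP-15 call (0.09, beside 0.13 with them, adjusted p = 0.109) without the 10 mice with olfactory bulb markers. Cplx1, Syp, Sv2a and Bsn passed in no comparison with ctrl-PBS, although the pan-neuronal scaling brought Cplx1 in TDP-PBS and TDP-15 and Bsn in TDP-15 past the threshold as higher, and the calls of Doc2b, Syn2, Sncb, Rims2 and Unc13b depended on the group.

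The fall was visible in the libraries as a whole. The 37 genes together took 1.97% to 2.23% (median 2.09%) of the counts of a ctrl-PBS mouse, 1.59% to 1.87% (median 1.75%) in TDP-PBS, 1.59% to 1.89% (median 1.73%) in TDP-10+12 and 1.68% to 1.85% (median 1.75%) in TDP-15. No rNLS8 mouse reached the lowest ctrl-PBS share. The median over the 37 genes of the log2 level relative to the ctrl-PBS mean ran from -0.09 to 0.12 in ctrl-PBS mice and from -0.48 to -0.17 in the 32 rNLS8 mice. In bulk tissue, fewer terminals or neurons of a type and less RNA per neuron cannot be told apart. The summed pan-neuronal markers overlapped between the groups, while those of excitatory neurons spanned 6757 to 10286 CPM in ctrl-PBS and 4985 to 7237 in TDP-PBS, with Camk2a (log2 fold change -0.52) and Nrgn (-0.81) lower and Slc17a7, the vesicular glutamate transporter, at -0.03 (adjusted p = 0.716). Microglial markers summed to 215 to 252 CPM in ctrl-PBS and 276 to 389 in TDP-PBS, and mitochondrial transcripts took a median of 0.406% and 0.530% of counts. The part of these shifts in the fall of the presynaptic genes was not tested.

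**Figure D1:**
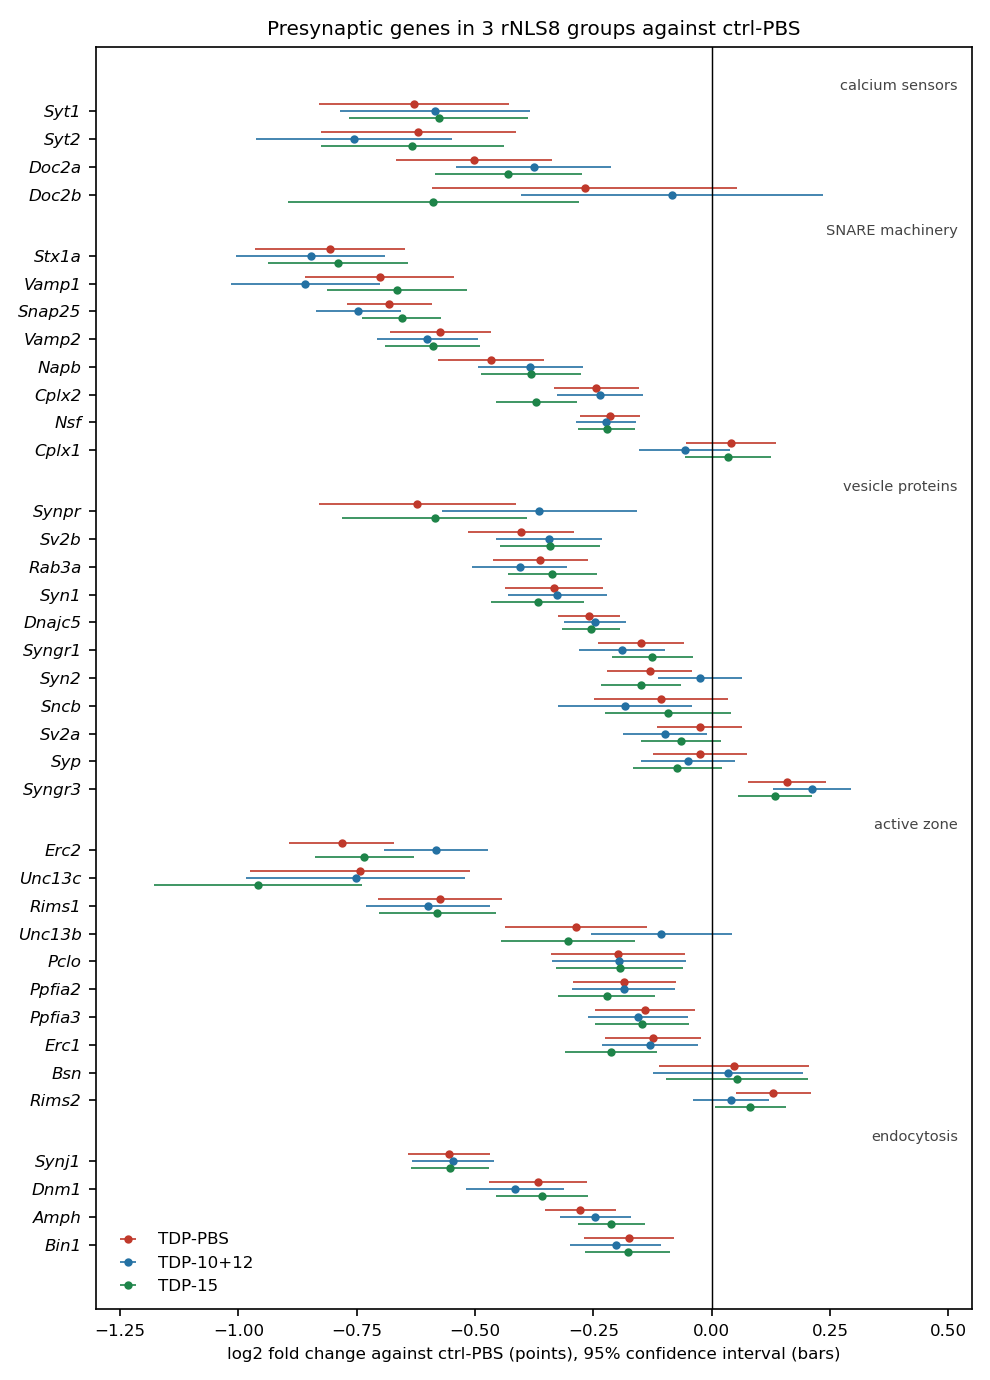
Log2 fold change of each gene against ctrl-PBS (horizontal axis) for TDP-PBS, TDP-10+12 and TDP-15, by role, with points for the estimate and bars for the 95% confidence interval. Most points lie left of 0, from -0.81 for Stx1a to 0.16 for Syngr3 in TDP-PBS, and the 3 groups lie close together for most genes.

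Of the 37 genes, 7 had all 32 rNLS8 mice below every ctrl-PBS mouse (18.9%, against 1.64% of all genes tested), namely Snap25, Stx1a, Vamp2, Dnajc5, Rims1, Erc2 and Synj1. Within TDP-PBS alone the count was 9 (2.58% of all genes), within TDP-10+12 it was 9 (2.59%) and within TDP-15 it was 10 (3.08%). Spread between ctrl-PBS mice differed by gene: the coefficient of variation ran from 4.46% for Amph to 25.9% for Doc2b (median 9.25%), and only Syt2, Doc2b, Synpr and Unc13c among the 37 exceeded 20%.

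**Figure D2:**
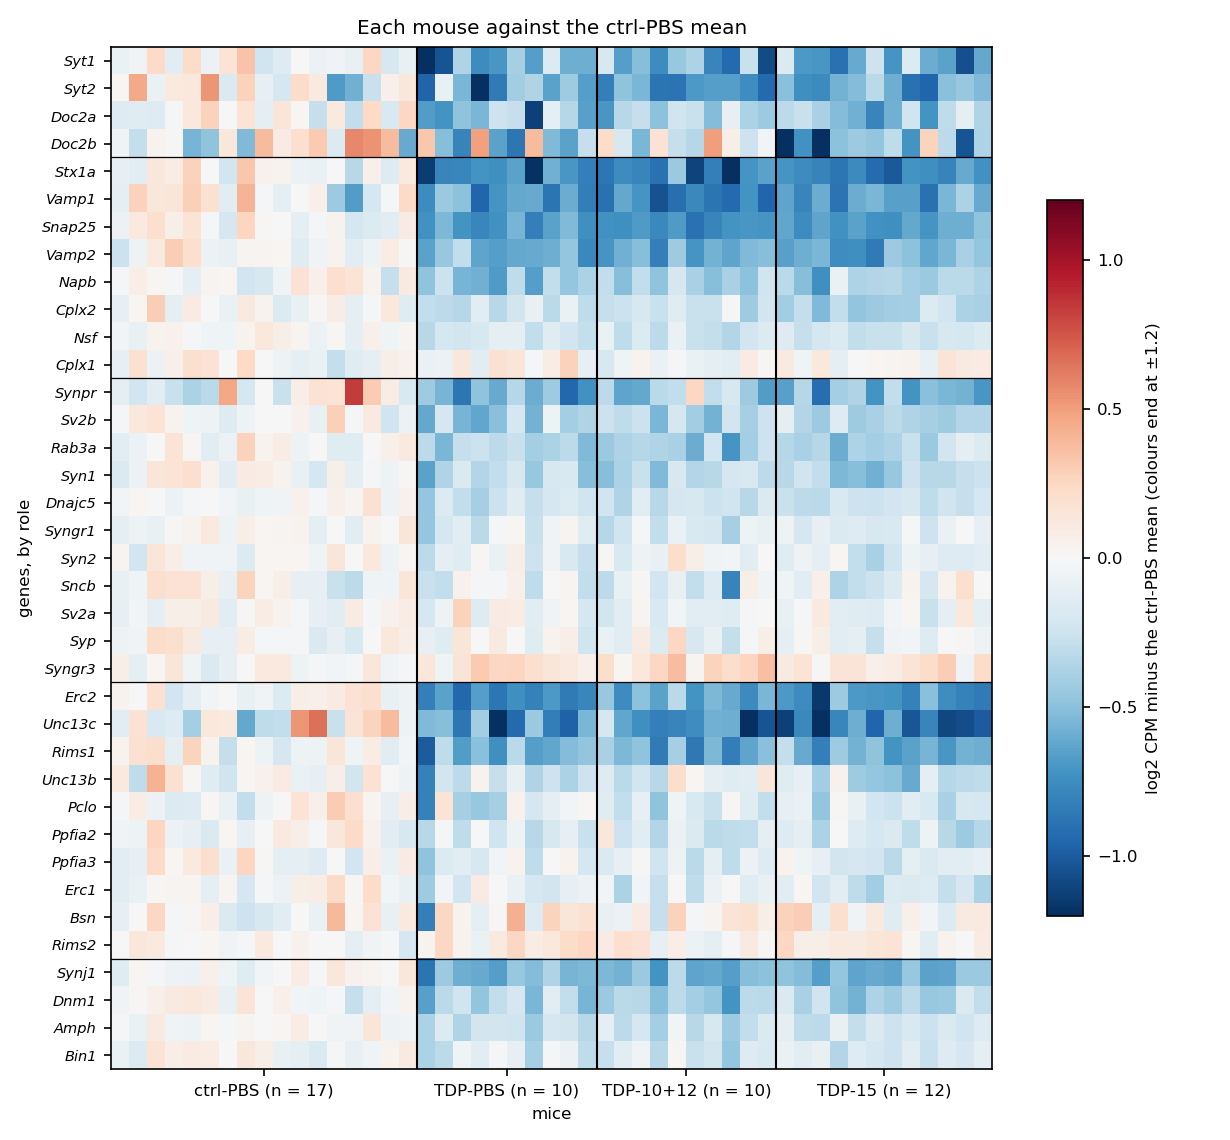
Log2 CPM of each gene (rows, by role) in each mouse (columns, by group) minus the ctrl-PBS mean of that gene, with blue for lower and red for higher. The rows of Stx1a, Vamp1, Snap25, Vamp2, Erc2, Rims1 and Synj1 are blue across the rNLS8 mice, whereas Syngr3 is pale red and Doc2b is mixed.

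Start-site sequence is shown for 3 genes that differed in response, Stx1a, which had the largest fall in TDP-PBS, Syn1, which fell less, and Syp, which did not pass the test. Promoter windows of 300 bases (250 before to 50 after the annotated start, RefSeq, GRCm38.p6) were found for 29 of the 37 genes. Capitals mark a GC box (GGGGCGGGG), a cyclic AMP response element (CRE, TGACGTCA) or 1 arm of the recognition sequence of the neuronal repressor NRSF (TTCAGCACC), each searched on both strands. The windows are chr5:135023232-135023531 on the plus strand for Stx1a, chrX:7638330-7638629 on the plus strand for Syp and chrX:20920869-20921168 on the minus strand for Syn1.
Stx1a: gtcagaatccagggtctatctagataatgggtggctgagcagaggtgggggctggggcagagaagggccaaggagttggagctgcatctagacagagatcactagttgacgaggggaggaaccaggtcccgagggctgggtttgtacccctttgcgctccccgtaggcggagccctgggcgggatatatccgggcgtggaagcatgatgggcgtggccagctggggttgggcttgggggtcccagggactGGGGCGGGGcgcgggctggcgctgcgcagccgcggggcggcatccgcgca
Syp: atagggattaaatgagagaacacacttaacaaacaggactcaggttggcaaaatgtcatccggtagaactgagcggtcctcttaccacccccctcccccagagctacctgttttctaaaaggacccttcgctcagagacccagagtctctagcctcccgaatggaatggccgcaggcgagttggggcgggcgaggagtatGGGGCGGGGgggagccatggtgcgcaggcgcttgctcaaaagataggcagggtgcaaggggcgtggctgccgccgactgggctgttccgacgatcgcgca
Syn1: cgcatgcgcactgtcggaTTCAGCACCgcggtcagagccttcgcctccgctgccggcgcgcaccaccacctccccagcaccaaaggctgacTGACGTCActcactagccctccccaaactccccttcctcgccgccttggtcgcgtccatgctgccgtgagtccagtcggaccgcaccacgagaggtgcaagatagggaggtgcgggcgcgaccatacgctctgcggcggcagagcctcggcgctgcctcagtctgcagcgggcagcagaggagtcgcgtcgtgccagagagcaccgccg
The GC box lay at position 1 of the transcript in Stx1a and 50 bases before the start in Syp, so these letters occurred in a gene that fell and in a gene that did not pass. It was present in 13 of the 29 genes (44.8%) and in 22.4% of the 13340 genes tested that had a window. The median GC content was 62.2% over the windows of the list and 59.7% over those of all genes tested. Syn1 held the CRE 159 bases and the NRSF arm 232 bases before its start; the CRE was in 1 of 29 genes (3.45%, against 3.17% of all) and the NRSF arm in 2, Ppfia3 and Syn1 (6.9%, against 0.547%). A match is a description of the sequence only.

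Among the SNARE machinery, which forms the fusion complex, 7 of 8 genes were lower in TDP-PBS and 0 higher (median log2 fold change -0.52). For this and each role below, the TDP-PBS shares of all genes tested were 21.6% lower and 21.9% higher. Stx1a, the plasma membrane syntaxin (chr5:135023482-135051100, plus strand), measured 241 to 379.7 (median 304) CPM in ctrl-PBS, 134 to 204 (median 180.1) in TDP-PBS, 97.3 to 223 (median 174) in TDP-10+12 and 151 to 201 (median 180.0) in TDP-15. It had the largest fall of the 37 genes in TDP-PBS, -0.81 ± 0.08 on the log2 scale (SE, adjusted p = 2.87e-12) (42.8% lower), and no rNLS8 mouse overlapped with ctrl-PBS. Snap25, its membrane partner (chr2:136713439-136782428, plus strand), measured 2308 to 3183 (median 2653) CPM in ctrl-PBS, 1513 to 1852 (median 1619) in TDP-PBS, 1434 to 1672 (median 1621) in TDP-10+12 and 1577 to 1911 (median 1714) in TDP-15. It was the most abundant of the 37 in CPM, was also free of overlap, and fell with the smallest adjusted p of the list, -0.68 ± 0.04 on the log2 scale (SE, adjusted p = 5.14e-18).

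The vesicle SNAREs followed. Vamp2, the synaptobrevin of most forebrain synapses, measured 1538 to 2257 (median 1858) CPM in ctrl-PBS, 1073 to 1495 (median 1206) in TDP-PBS, 1039 to 1368 (median 1235) in TDP-10+12 and 1019 to 1407 (median 1241) in TDP-15. All 32 rNLS8 mice were under the lowest ctrl-PBS mouse, and the TDP-PBS change was -0.57 ± 0.05 on the log2 scale (SE, adjusted p = 6.34e-13). Vamp1, its relative in fast-firing neurons, measured 106 to 223 (median 168) CPM in ctrl-PBS, 86.97 to 124 (median 106) in TDP-PBS, 81.6 to 110.2 (median 91.2) in TDP-10+12 and 90.3 to 129 (median 109.6) in TDP-15. Its groups overlapped, with 17 of 32 rNLS8 mice below every ctrl-PBS mouse, and it fell by 0.70 in TDP-PBS, by 0.86 in TDP-10+12 and by 0.66 in TDP-15 on the log2 scale.

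The proteins that take used SNARE complexes apart and the complexins that hold them before fusion changed less than Stx1a, Snap25, Vamp1 and Vamp2. Napb, beta-SNAP, fell by 0.47 and the ATPase Nsf by 0.21 on the log2 scale, with 28 and 29 of 32 rNLS8 mice below every ctrl-PBS mouse. Cplx2 measured 1449.6 to 2004 (median 1635) CPM in ctrl-PBS, 1286 to 1538 (median 1321) in TDP-PBS, 1207 to 1607 (median 1356) in TDP-10+12 and 1124 to 1455 (median 1236) in TDP-15. Cplx1 measured 538 to 773 (median 654) CPM in ctrl-PBS, 597 to 793 (median 672) in TDP-PBS, 576 to 703 (median 627) in TDP-10+12 and 609.9 to 729 (median 674) in TDP-15. Cplx2 was lower (-0.24 ± 0.05 on the log2 scale, SE, adjusted p = 1.32e-05) with partly overlapping groups, whereas the Cplx1 groups overlapped and its change was 0.04 ± 0.05 on the log2 scale (SE, adjusted p = 0.518).

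**Figure D3:**
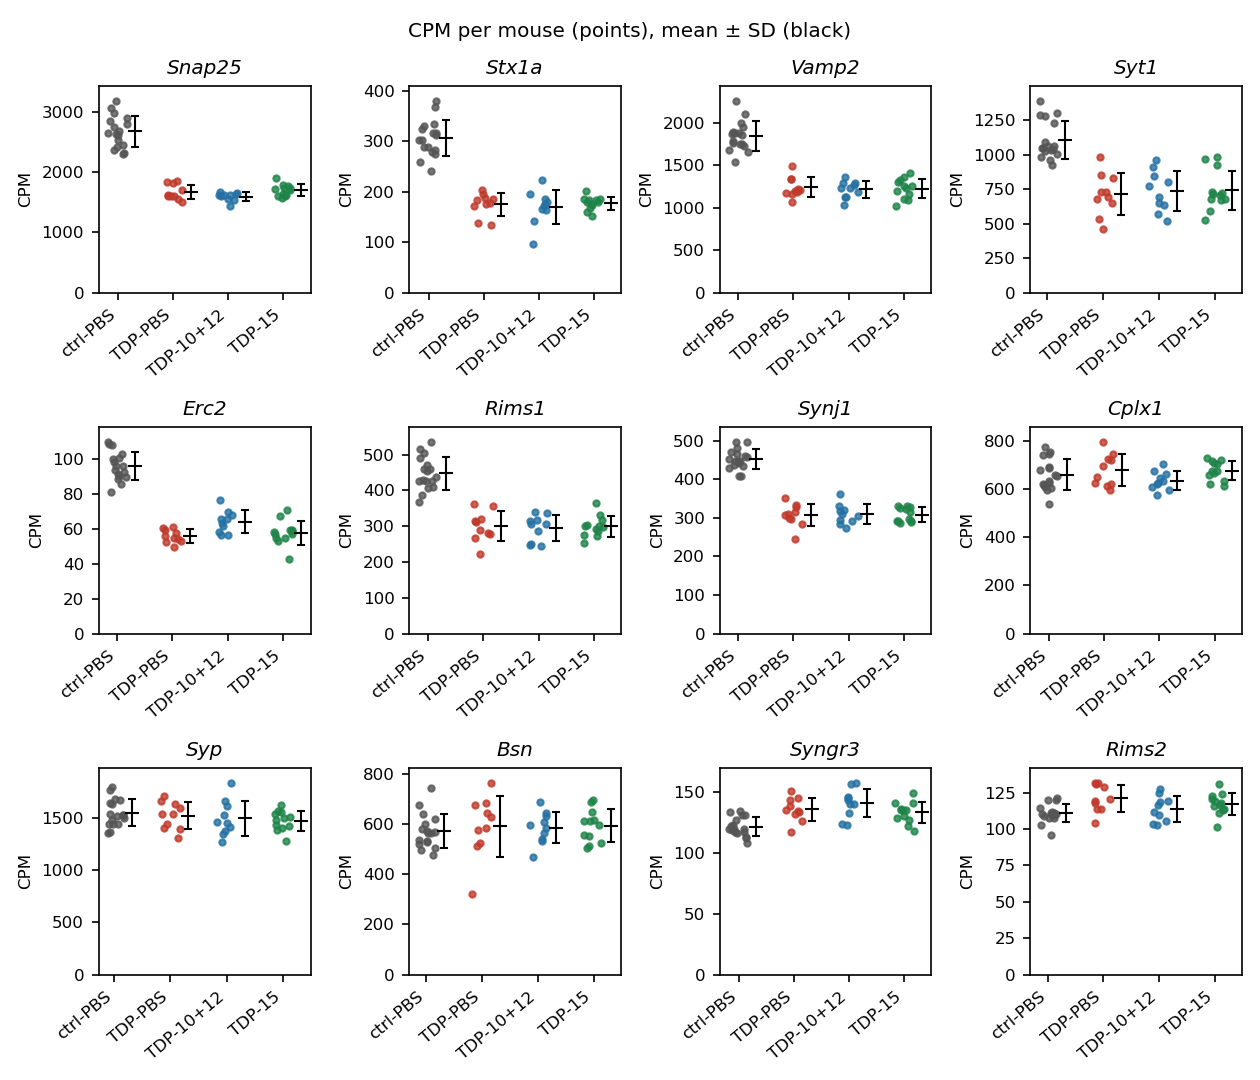
CPM of 12 genes in each mouse (points, linear axis from 0) by group, with the group mean ± SD in black. Snap25, Stx1a, Vamp2, Erc2, Rims1 and Synj1 show rNLS8 mice wholly below ctrl-PBS, Syt1 nearly so, and Cplx1, Syp, Bsn, Syngr3 and Rims2 overlap.

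Of the calcium sensors, 3 of 4 were lower in TDP-PBS, with a median of -0.56. Syt1, the fast sensor of most cortical synapses, measured 928 to 1387 (median 1047) CPM in ctrl-PBS, 458 to 981 (median 713) in TDP-PBS, 521 to 963 (median 733) in TDP-10+12 and 528 to 982 (median 711) in TDP-15. It fell by 0.63 on the log2 scale in TDP-PBS, and 28 of 32 rNLS8 mice were under the lowest ctrl-PBS mouse. Syt2, the fast sensor typical of parvalbumin interneurons and hindbrain neurons, measured 28.1 to 64.7 (median 46.9) CPM in ctrl-PBS, 18.7 to 42.2 (median 29.7) in TDP-PBS, 23.5 to 32.2 (median 27.3) in TDP-10+12 and 23.2 to 35.9 (median 30.6) in TDP-15. Its fall of 0.62 was close in size to that of Syt1, but with wide and overlapping groups, and 13 of 32 rNLS8 mice were under the lowest ctrl-PBS mouse. The summed parvalbumin interneuron markers spanned 332 to 403 CPM in ctrl-PBS and 268 to 362 in TDP-PBS, with Pvalb at -0.50 (adjusted p = 0.000105).

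The Doc2 proteins bind calcium with high affinity and act in spontaneous and asynchronous release. Doc2a measured 46.8 to 69.6 (median 57.4) CPM in ctrl-PBS, 26.4 to 53.3 (median 40.1) in TDP-PBS, 35.4 to 53.5 (median 44.9) in TDP-10+12 and 33.2 to 52.9 (median 44.2) in TDP-15, and was lower in TDP-PBS (-0.50 ± 0.08 on the log2 scale, SE, adjusted p = 1.35e-06). Exons of Ino80e on the opposite strand cover 39.4% of the exonic bases of Doc2a, and since the use of strand in counting is not stated, reads of both genes cannot be told apart there. Doc2b measured 24.97 to 56.7 (median 39.3) CPM in ctrl-PBS, 20.9 to 53.5 (median 26.5) in TDP-PBS, 26.03 to 53.9 (median 35.2) in TDP-10+12 and 14.9 to 45.7 (median 27.2) in TDP-15. Its groups overlapped; it fell in TDP-15 (-0.59 ± 0.15, adjusted p = 0.00123), while the values were -0.27 ± 0.16 in TDP-PBS (adjusted p = 0.176) and -0.08 ± 0.16 in TDP-10+12 (adjusted p = 0.711). Of the striatum markers, 2 of 6 were lower and 0 higher in TDP-15 against ctrl-PBS (median -0.41), and 0 of 6 passed in TDP-PBS or TDP-10+12. Their sum spanned 329 to 807 CPM (median 542) in TDP-15 and 220 to 1173 (median 742) in ctrl-PBS. The median sum was 580 CPM in TDP-PBS and 589 in TDP-10+12, where Doc2b did not pass. TDP-15 mice 1 and 3 had sums of 329 and 335 CPM with Doc2b at 14.9 and 15.1, and TDP-PBS mice 1 and 7 had 1121 and 1354 CPM with Doc2b at 47.6 and 49.5. Other mice went the other way: ctrl-PBS mouse 3 had 220 and 39.3, TDP-PBS mouse 4 had 490 and 53.5, TDP-10+12 mouse 10 had 419 and 37.2 and TDP-15 mouse 6 had 795 and 27.4. The part of such tissue in the Doc2b values was not tested.

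The vesicle proteins were divided, with 7 of 11 lower, 1 higher and 3 not passing in TDP-PBS and a median of -0.15 (5 lower and 1 higher under the pan-neuronal scaling). Syp, the abundant membrane protein synaptophysin (chrX:7638580-7653256, plus strand), measured 1360.4 to 1799 (median 1528) CPM in ctrl-PBS, 1309.7 to 1715 (median 1541) in TDP-PBS, 1268 to 1835 (median 1461) in TDP-10+12 and 1277 to 1622 (median 1492) in TDP-15. Its groups overlapped, with a change of -0.02 ± 0.05 on the log2 scale (SE, adjusted p = 0.72), and it stood at 0.08 when libraries were scaled on the pan-neuronal markers. Sv2a, the glycoprotein that binds the antiepileptic levetiracetam, measured 425 to 504 (median 472) CPM in ctrl-PBS, 407 to 564 (median 451) in TDP-PBS, 400.2 to 476 (median 427) in TDP-10+12 and 389 to 510.2 (median 435) in TDP-15. Sv2b, its relative in excitatory neurons, measured 270.1 to 388 (median 313) CPM in ctrl-PBS, 207 to 306 (median 232) in TDP-PBS, 215 to 277 (median 262) in TDP-10+12 and 236 to 295 (median 249) in TDP-15. Sv2b was lower (-0.40 ± 0.06 on the log2 scale, SE, adjusted p = 3.7e-08), whereas the Sv2a change was -0.03 ± 0.04 on the log2 scale (SE, adjusted p = 0.673) with overlapping groups, and 0.08 under the pan-neuronal scaling.

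Synapsins tether vesicles to each other in the reserve pool. Syn1 (chrX:20860511-20920918, minus strand) measured 1394 to 1857 (median 1630.4) CPM in ctrl-PBS, 1035 to 1434 (median 1292) in TDP-PBS, 1123 to 1429 (median 1293) in TDP-10+12 and 1088 to 1366 (median 1284) in TDP-15. Syn2 measured 341 to 443 (median 406) CPM in ctrl-PBS, 322 to 419 (median 366) in TDP-PBS, 353 to 462 (median 389) in TDP-10+12 and 305 to 405 (median 364) in TDP-15. Syn1 fell by 0.33 in TDP-PBS, 0.33 in TDP-10+12 and 0.37 in TDP-15, and 25 of 32 rNLS8 mice were under the lowest ctrl-PBS mouse. Syn2 fell by 0.13 in TDP-PBS and 0.15 in TDP-15, whereas its value in TDP-10+12 was -0.02 (adjusted p = 0.702). Under the pan-neuronal scaling both Syn2 calls were lost (adjusted p = 0.579 in TDP-PBS and 0.487 in TDP-15).

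The synaptogyrins, tetraspan vesicle proteins, moved in opposite directions. Syngr3 measured 108 to 134 (median 119.8) CPM in ctrl-PBS, 117 to 151 (median 135) in TDP-PBS, 123 to 157 (median 142) in TDP-10+12 and 118 to 149 (median 135) in TDP-15. It was the highest change of the list in TDP-PBS (0.16 ± 0.04 on the log2 scale, SE, adjusted p = 0.00124), with 20 of 32 rNLS8 mice above every ctrl-PBS mouse. Syngr1 measured 468 to 569 (median 517) CPM in ctrl-PBS, 372 to 526 (median 464) in TDP-PBS, 389 to 507 (median 448) in TDP-10+12 and 432 to 512 (median 471) in TDP-15, and was lower (-0.15 ± 0.04 on the log2 scale, SE, adjusted p = 0.00552) with overlapping groups. Under the pan-neuronal scaling Syngr1 stood at -0.05 (adjusted p = 0.387) in TDP-PBS and passed in no group. Its TDP-15 call was lost without the 10 mice with olfactory bulb markers (-0.124, beside -0.125 with them, adjusted p = 0.0525).

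The GTPase Rab3a and the chaperone Dnajc5 (cysteine string protein, which keeps SNAP-25 folded) fell with little or no overlap. Rab3a fell by 0.36 in TDP-PBS, with 31 of 32 rNLS8 mice below every ctrl-PBS mouse, and Dnajc5 by 0.26, with 32 of 32. Sncb, beta-synuclein, had -0.11 in TDP-PBS (adjusted p = 0.224), -0.18 in TDP-10+12 (adjusted p = 0.0317) and -0.09 in TDP-15 (adjusted p = 0.256); the TDP-10+12 call was lost without any of TDP-10+12 mice 1, 6 or 8 or ctrl-PBS mouse 8 (adjusted p = 0.0597, 0.0581, 0.108 and 0.0529) and under the pan-neuronal scaling (adjusted p = 0.287).

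Synpr, synaptoporin, a synaptophysin relative of mossy fibre and interneuron terminals, measured 39.5 to 92.02 (median 47.3) CPM in ctrl-PBS, 26.7 to 40.6 (median 34.5) in TDP-PBS, 32.2 to 61.2 (median 41.1) in TDP-10+12 and 27.2 to 41.9 (median 34.9) in TDP-15. The group ranges overlapped. The highest Synpr values of ctrl-PBS, 92.02 and 71.01 CPM, were in mice 14 and 7, with olfactory bulb marker sums of 112 and 91.3 CPM. Other mice went the other way: ctrl-PBS mouse 15 had a sum of 3.41 and Synpr at 63.6, and ctrl-PBS mouse 13 had 5.86 and 57.6. TDP-15 mouse 7 had 53.97 and 41.9, and TDP-15 mouse 12 had 27.1 and 31.7. The part of such tissue in the Synpr values was not tested. Synpr fell by 0.62 in TDP-PBS, 0.36 in TDP-10+12 and 0.59 in TDP-15. Without the 10 mice over 10 CPM, the values were -0.50, -0.33 and -0.48 (adjusted p = 2.98e-06, 0.00183 and 8.22e-06).

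**Figure D4:**
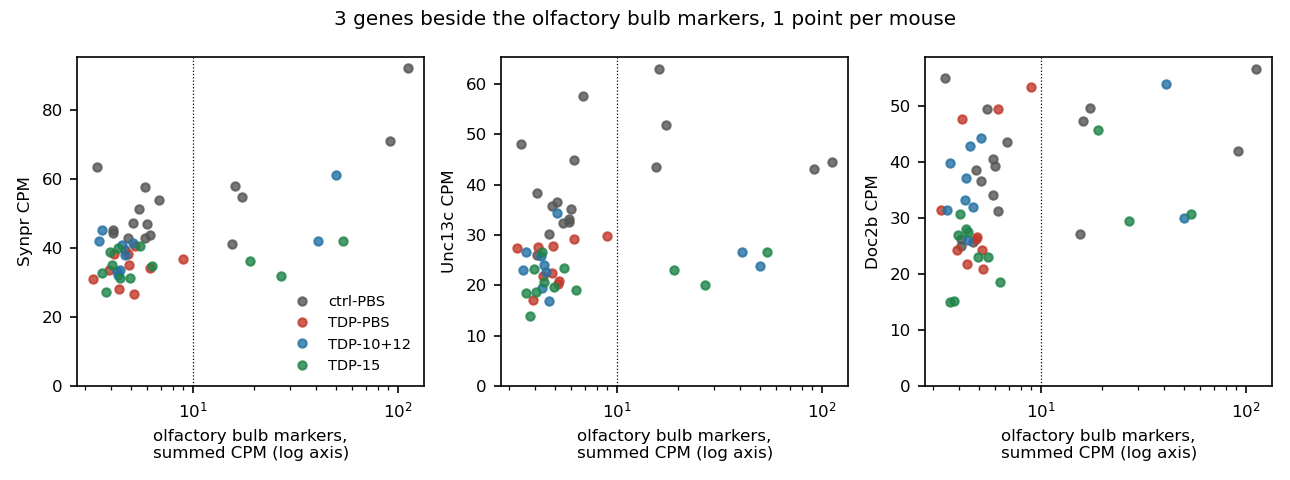
CPM of Synpr, Unc13c and Doc2b (vertical axes) beside the summed CPM of 5 olfactory bulb markers (horizontal log axis) in each mouse, coloured by group, with a dotted line at 10 CPM. The 2 ctrl-PBS mice with the highest marker sums have the highest Synpr, and no TDP-PBS mouse lies right of the line.

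At the active zone, 8 of 10 genes were lower and 1 higher in TDP-PBS, with a median of -0.19 and contrasts between relatives (4 lower and 1 higher under the pan-neuronal scaling). Erc2 (ELKS2/CAST, a scaffold confined to active zones, chr14:27622275-28478537, plus strand) measured 81.2 to 109 (median 95.6) CPM in ctrl-PBS, 49.7 to 61.1 (median 55.1) in TDP-PBS, 56.1 to 76.2 (median 64.2) in TDP-10+12 and 42.7 to 70.4 (median 57.7) in TDP-15. All 32 rNLS8 mice were under the lowest ctrl-PBS mouse, with a change of -0.78 ± 0.06 on the log2 scale (SE, adjusted p = 8.9e-17) in TDP-PBS. Erc1, which is also used outside neurons, measured 47.6 to 64.3 (median 55.2) CPM in ctrl-PBS, 40.8 to 58.7 (median 51.5) in TDP-PBS, 42.2 to 55.02 (median 51.8) in TDP-10+12 and 40.9 to 55.8 (median 48.1) in TDP-15. Its groups overlapped and its change of -0.12 ± 0.05 on the log2 scale (SE, adjusted p = 0.0438) in TDP-PBS lay near the threshold: leaving out any of 13 mice ended the call (ctrl-PBS 3, 4, 5, 7, 11, 12, 13 and 15 and TDP-PBS 1, 3, 7, 8 and 9), with adjusted p up to 0.127. Its TDP-10+12 call (-0.13, adjusted p = 0.0341) was lost without any of TDP-10+12 mice 2, 4 or 6 or ctrl-PBS mice 13 or 15 (adjusted p up to 0.0929). Without the 10 mice with olfactory bulb markers Erc1 stood at -0.13 in TDP-PBS (adjusted p = 0.0744) and -0.12 in TDP-10+12 (adjusted p = 0.124), and under the pan-neuronal scaling it passed in no group (-0.02 in TDP-PBS, adjusted p = 0.763).

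RIM proteins tether vesicles and recruit calcium channels. Rims1 (chr1:22285972-22806158, minus strand) measured 366 to 534 (median 437) CPM in ctrl-PBS, 223 to 361 (median 299.9) in TDP-PBS, 246 to 339.6 (median 306) in TDP-10+12 and 252 to 365 (median 299) in TDP-15. Rims2 measured 96.2 to 121 (median 110.4) CPM in ctrl-PBS, 104 to 131 (median 120.1) in TDP-PBS, 103 to 128 (median 114) in TDP-10+12 and 101 to 131 (median 117) in TDP-15. Rims1 had no overlap between ctrl-PBS and any rNLS8 mouse and changed by -0.57 ± 0.07 on the log2 scale (SE, adjusted p = 2.46e-10). Rims2 was higher in TDP-PBS (0.13 ± 0.04 on the log2 scale, SE, adjusted p = 0.00587) with 4 of 10 mice above every ctrl-PBS mouse, and its values were 0.04 in TDP-10+12 (adjusted p = 0.439) and 0.08 in TDP-15 (adjusted p = 0.0691). Both passed under the pan-neuronal scaling (0.14 and 0.20, adjusted p = 0.0119 and 0.000102).

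Both Munc13 relatives on the list were lower in TDP-PBS. Unc13c, Munc13-3, best known from cerebellum, measured 26.1 to 62.9 (median 38.3) CPM in ctrl-PBS, 17.1 to 29.8 (median 24.9) in TDP-PBS, 16.9 to 34.4 (median 23.9) in TDP-10+12 and 13.8 to 26.6 (median 20.3) in TDP-15. It was lower in all 3 groups by 0.74, 0.75 and 0.96 on the log2 scale, and by 0.62, 0.64 and 0.88 without the 10 mice with olfactory bulb markers. The sum over the cerebellum markers, which was not limited to the 2 tested, was at most 3.39 CPM in every mouse. Unc13b, Munc13-2, measured 36.7 to 60.5 (median 45.9) CPM in ctrl-PBS, 25.9 to 46.7 (median 37.7) in TDP-PBS, 35.97 to 52.5 (median 41.2) in TDP-10+12 and 29.8 to 47.2 (median 36.1) in TDP-15. It fell by 0.29 in TDP-PBS and 0.30 in TDP-15, with overlapping groups, and had -0.11 in TDP-10+12 (adjusted p = 0.26).

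Of the giant scaffolds, Bsn, bassoon, measured 478 to 743 (median 565) CPM in ctrl-PBS, 322 to 762 (median 607) in TDP-PBS, 470.1 to 688 (median 589) in TDP-10+12 and 506 to 696 (median 604) in TDP-15. Pclo, piccolo, measured 233 to 355 (median 287) CPM in ctrl-PBS, 163 to 322 (median 257) in TDP-PBS, 206 to 289 (median 256) in TDP-10+12 and 206 to 289.6 (median 251) in TDP-15. Pclo was lower (-0.20 ± 0.07 on the log2 scale, SE, adjusted p = 0.0189) with overlapping groups and lost its call without TDP-PBS mouse 1 (adjusted p = 0.0667), while the Bsn change was 0.05 ± 0.08 on the log2 scale (SE, adjusted p = 0.657). Without the 10 mice with olfactory bulb markers Pclo passed in no group (adjusted p = 0.059, 0.108 and 0.0901). Its values were then -0.192 in TDP-PBS, -0.181 in TDP-10+12 and -0.177 in TDP-15, beside -0.199, -0.196 and -0.195 with them. Under the pan-neuronal scaling Pclo stood at -0.10 in TDP-PBS (adjusted p = 0.302) and also passed in none. The liprins Ppfia2 and Ppfia3, which organise active zone assembly, fell by 0.18 and 0.14 in TDP-PBS. Exons of Acss3 on the opposite strand cover 22.3% of the exonic bases of Ppfia2, and Ppfia3 lost its call without TDP-PBS mouse 1 or 7 (adjusted p = 0.0858 and 0.0624). Under the pan-neuronal scaling Ppfia2 (-0.08, adjusted p = 0.233) and Ppfia3 (-0.03, adjusted p = 0.525) did not pass in TDP-PBS, nor in the other groups.

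All 4 endocytosis genes were lower in each rNLS8 group, with a median of -0.32 in TDP-PBS, except that Bin1 lost its call in TDP-PBS (-0.07, adjusted p = 0.148) and TDP-15 (-0.06, adjusted p = 0.218) under the pan-neuronal scaling. Synj1, the phosphatase that strips the coat from recovered vesicles (chr16:90936092-91013727, minus strand), measured 409 to 496 (median 448) CPM in ctrl-PBS, 246 to 351 (median 308) in TDP-PBS, 274 to 362 (median 308) in TDP-10+12 and 286 to 331 (median 306) in TDP-15. Its groups did not overlap, and the change was -0.56 ± 0.04 on the log2 scale (SE, adjusted p = 1.97e-15). Dnm1, the neuronal dynamin that cuts vesicles off, fell by 0.37, with 26 of 32 rNLS8 mice below every ctrl-PBS mouse, and Amph, amphiphysin, by 0.28, with 31 of 32. Bin1, the amphiphysin also made by glia, had the smallest change of this role: it measured 249 to 314 (median 279) CPM in ctrl-PBS, 213 to 277 (median 258) in TDP-PBS, 203 to 282 (median 244) in TDP-10+12 and 219.7 to 265 (median 251) in TDP-15 and fell by 0.17 on the log2 scale (adjusted p = 0.00223) with overlapping groups.

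Within families, the unequal change was tested directly as the log2 ratio of both counts within each mouse, which does not depend on how libraries are scaled. Of 13 pairs, 8 shifted in TDP-PBS, 9 in TDP-10+12 and 8 in TDP-15 (2-sided permutation test, 100000 resamples, adjusted over 39 tests, for which 1e-05 is the smallest p that can be given). How often other gene pairs shift was not measured. Since 21.6% of all genes tested were lower and 21.9% higher in TDP-PBS, these counts cannot be read as particular to these families. The largest shift was in Rims1 over Rims2, whose mean log2 ratio was 2.01 ± 0.14 (SD, n = 17) in ctrl-PBS and 1.30 ± 0.17 (SD, n = 10) in TDP-PBS (permutation test, p = 1e-05, adjusted p = 4.33e-05). All 32 rNLS8 mice lay below the ctrl-PBS range for this pair. Erc1 over Erc2 shifted the other way, from -0.80 ± 0.12 to -0.15 ± 0.14 (n = 17 and 10, permutation test, p = 1e-05, adjusted p = 4.33e-05), and all 32 rNLS8 mice lay above the ctrl-PBS range.

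Other pairs shifted with partly overlapping mice. In TDP-PBS the mean log2 ratio changed by 0.44 for Unc13b over Unc13c, 0.38 for Sv2a over Sv2b, 0.28 for Cplx1 over Cplx2, 0.24 for Bsn over Pclo, -0.20 for Syn1 over Syn2 and -0.31 for Syngr1 over Syngr3 (permutation tests, adjusted p = 0.0244, 7.09e-05, 0.000551, 0.00125, 0.00139 and 4.33e-05). These 6 pairs also shifted in the same direction and passed in TDP-10+12 and TDP-15. Vamp1 over Vamp2 passed in TDP-10+12 (-0.24, permutation test, adjusted p = 0.0182), with -0.11 in TDP-PBS (adjusted p = 0.273). The ratios of Syt1 to Syt2, Doc2a to Doc2b, Ppfia2 to Ppfia3 and Amph to Bin1 passed in no comparison. For Amph over Bin1 the shift was -0.10 in TDP-PBS (permutation test, adjusted p = 0.0747).

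**Figure D5:**
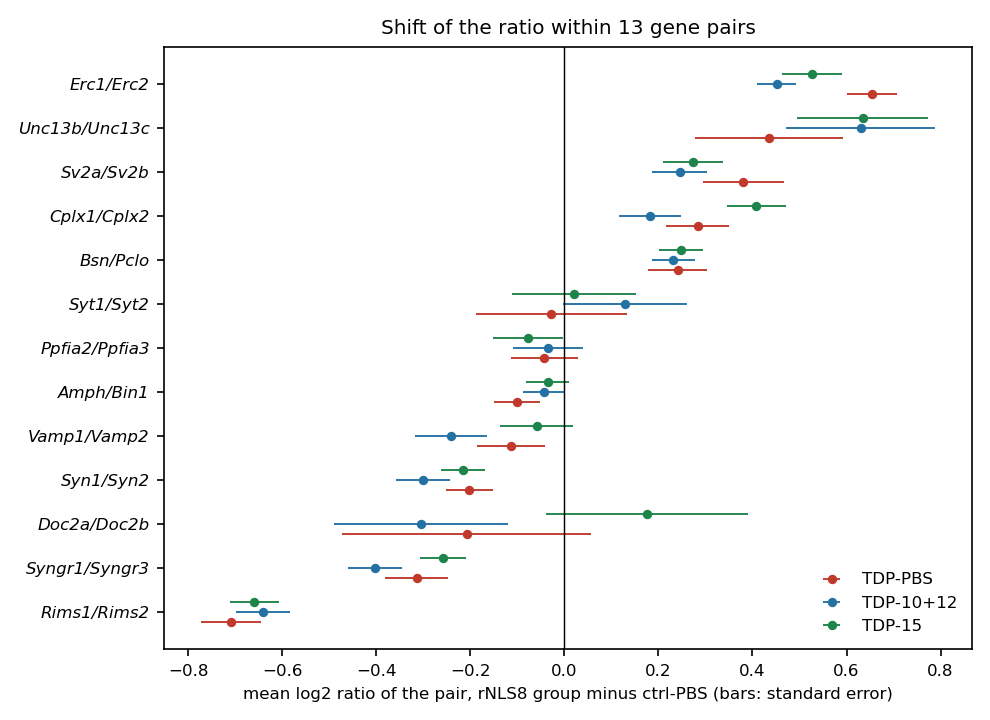
Difference in the mean log2 ratio of 13 gene pairs between each rNLS8 group and ctrl-PBS (horizontal axis), with bars for the standard error of the difference. Rims1/Rims2 lies between -0.71 and -0.64 and Erc1/Erc2 between 0.45 and 0.65, while Syt1/Syt2, Ppfia2/Ppfia3 and Amph/Bin1 lie near 0.

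Levels of different genes were compared per kilobase of exon (CPM per kb, ctrl-PBS mean). Rab3a was the highest at 782, followed by Syn1 at 492, Vamp2 at 484.5, Sncb at 406 and Snap25 at 395, and the lowest were Erc1 at 3.37 and Unc13b at 2.01. In TDP-PBS the same measure was 609 for Rab3a, 390.5 for Syn1, 326 for Vamp2, 377 for Sncb and 246 for Snap25. Erc2 stood at 9.85 in ctrl-PBS and 5.73 in TDP-PBS, and Rims1 at 60.8 and 40.8 beside Rims2 at 10.7 and 11.7. Vamp1 was left out of this order because its annotated exons add up to more than the RefSeq span.

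Long genes were lower more often among all genes, and the counts within the list ran the same way. Genes spanning under 20 kb were lower in TDP-PBS in 19.0% of all tested genes and in 4 of 8 of the list, and those of 200 kb or more in 34.4% and in 10 of 11. Between 20 and 50 kb the values were 20.2% and 6 of 8, and between 50 and 200 kb 26.3% and 9 of 10. The part of gene length in these results was not tested.

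No gene of the list passed the threshold between rNLS8 groups. For each of TDP-10+12 against TDP-PBS, TDP-15 against TDP-PBS and TDP-10+12 against TDP-15, 0 of 37 passed in edgeR, beside 0% of all genes; at an unadjusted p under 0.05 the counts were 5, 1 and 7 of 37, beside 5.23%, 3.03% and 6.83% of all genes. DESeq2 and limma also called 0. Erc2 had the smallest p against TDP-PBS, 0.20 higher in TDP-10+12 on the log2 scale (95% interval 0.08 to 0.32, unadjusted p = 0.00192, adjusted p = 0.71). The next were Cplx2 in TDP-15 (-0.13, interval -0.22 to -0.03) and Synpr (0.26, 0.03 to 0.49), Unc13b (0.18, 0.01 to 0.35) and Syn2 (0.11, 0.01 to 0.21) in TDP-10+12, with adjusted p of 0.926 or more. For Snap25 the interval of the difference from TDP-PBS was -0.16 to 0.03 in TDP-10+12 and -0.07 to 0.12 in TDP-15, and for Stx1a it was -0.21 to 0.13 and -0.15 to 0.18. Over the 37 genes these intervals reached from -0.36 to 0.54 in TDP-10+12 and from -0.67 to 0.26 in TDP-15, both widest for genes of low or variable level.

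The difference between TDP-PBS and ctrl-PBS was also compared between the sexes in the 27 PBS-treated mice (10 female and 7 male ctrl-PBS, 4 female and 6 male TDP-PBS). The interaction passed for 0 of 37 genes, beside 0% of the 17363 genes tested in edgeR, and 2 of 37 reached an unadjusted p under 0.05, beside 6.32%. Those were Syngr3, with a log2 fold change of 0.05 in females and 0.28 in males (unadjusted p = 0.0038, adjusted p = 0.741), and Doc2b, with -0.64 and 0.05 (unadjusted p = 0.0359, adjusted p = 0.774).

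A wider list of 85 other presynaptic genes had 45 lower, 9 higher and 31 not passing in TDP-PBS, with a median of -0.15; scaled on the pan-neuronal markers, the counts were 29 lower and 19 higher, against 12.3% and 33.8% of all genes (21.6% and 21.9% without it). In TDP-10+12 the counts were 43 lower and 7 higher (20% and 20.8% of all genes), and in TDP-15 48 and 12 (23.2% and 23.6%). Unc13a, Munc13-1, the main priming factor of cortical synapses, measured 290.1 to 402 (median 335) CPM in ctrl-PBS, 171 to 283 (median 244) in TDP-PBS, 208 to 285 (median 243) in TDP-10+12 and 211 to 278 (median 242) in TDP-15. Its groups did not overlap and it fell by 0.49 in TDP-PBS (adjusted p = 1.11e-09).

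The 3 lowest changes of the wider list that passed were Doc2g (-1.64), Syt10 (-0.96) and Cadps2 (-0.90), and the 3 highest were Vamp7 (0.49), Napa (0.35) and Rims3 (0.35). Doc2g is itself among the olfactory bulb markers whose sum picked the 10 mice. In ctrl-PBS it spanned 11.4 to 68.9 CPM in the mice over 10 CPM and 3.11 to 5.51 in the others. Its value without the 10 mice (-0.15, adjusted p = 0.377) follows from that choice and cannot test the change. Syt10 (-0.82) and Cadps2 (-0.92, a priming factor of dense-core vesicles), which are not among those markers, still passed without these mice. Vamp7, a SNARE of endosomal and lysosomal fusion, measured 9.03 to 13.3 (median 11.3) CPM in ctrl-PBS, 12.9 to 19.7 (median 15.4) in TDP-PBS, 13.6 to 21.1 (median 15.8) in TDP-10+12 and 14.9 to 20.04 (median 17.1) in TDP-15. Napa, the alpha-SNAP used in general membrane fusion, measured 251 to 345 (median 286) CPM in ctrl-PBS, 316 to 412 (median 364) in TDP-PBS, 302 to 366 (median 343) in TDP-10+12 and 309 to 397 (median 363) in TDP-15. Ranges of ctrl-PBS and TDP-PBS overlapped for both genes.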

How the data were processed

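The authors sequenced neocortical RNA of each mouse as paired reads; the submitters' processing notes name HISAT, HISAT2, Bowtie, Bowtie2 and RSEM with the mouse build mm10. The deposited table holds whole-number read counts per gene, not normalized, for 49 mice, each assigned to its group by its labels. Genes were filtered with filterByExpr by group (minimum count 10), scaled by TMM and tested with edgeR 4.0.16 (quasi-likelihood, 4 groups, R 4.3.3, adjusted p under 0.05, Benjamini-Hochberg); standard errors are the fold change over the root of F. Alternatives used DESeq2 1.42.0, limma 3.58.1, other scalings, filters and samples, a sex covariate and each mouse left out in turn. Pair ratios were tested by permutation with 0.5 added to each count. Spans and promoters came from RefSeq (GRCm38.p6), exon lengths from GENCODE, matched by symbol. The tests were checked on simulated data. Genes described in full were the lowest and highest of each role, those changed by over 0.5 in TDP-PBS, those nearest a difference from TDP-PBS, the pairs that shifted, and from the wider list the 3 highest and 3 lowest plus Unc13a; some other genes fixed for naming are not reported here. The genes and lists were chosen with earlier results of these data known. Libraries were of like depth, and their number and the spread between mice limit the precision.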

Additional observations from a re-analysis of the deposited data

Results flagged for a closer look

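In groups of 10 mice, the highest or lowest mouse was compared with the others by the gap to its neighbour over the range of the group (Dixon's 95% limit). Of 74 gene and group combinations, 3 passed, and chance alone passes about 1 in 20. Synpr stood at 61.2 CPM in TDP-10+12 mouse 6, where the other 9 mice of the group lay between 32.2 and 45.1; this mouse also had an olfactory bulb marker sum of 50.2 CPM, and the part of such tissue in this value was not tested. Sncb stood at 497 CPM and Dnm1 at 877 CPM in TDP-10+12 mouse 8, where the others lay between 698 and 911 and between 1016 and 1165. The same mouse had the lowest Stx1a of all 49, at 97.3 CPM, and the TDP-10+12 call of Sncb was lost without it (adjusted p = 0.108). This mouse also had the lowest summed excitatory neuron markers of all 49 (4720 CPM) and the highest summed astrocyte markers (3247 CPM). The part of this tissue make-up in its Sncb, Dnm1 and Stx1a values was not tested.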

How the results depend on the processing

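No paired analysis was possible because each mouse was a separate animal with its own number. With other scalings, filters, tools, samples or a sex covariate, the number of the 37 genes that changed against ctrl-PBS lay between 25 and 31 in TDP-PBS, 24 and 30 in TDP-10+12 and 27 and 32 in TDP-15, and stayed at 0 between rNLS8 groups and for the sex interaction. Leaving out each of the 49 mice in turn gave 28 to 31, 27 to 30 and 31 to 32. Of 333 single-gene values in TDP-PBS, 314 kept their direction and side of the threshold, 15 lost a call (Erc1 5, Ppfia3 4, Pclo 2 and Syn2, Syngr1, Ppfia2 and Bin1 1 each, 7 of them with scaling on the pan-neuronal markers), 2 gained one, and 2 changed sign without passing: scaled on the pan-neuronal markers, Syp stood at 0.08 (adjusted p = 0.081) and Sv2a at 0.077 (adjusted p = 0.15). The same scaling brought Cplx1 to 0.14 (adjusted p = 0.00853), and limma with quality weights brought Doc2b to -0.44 (adjusted p = 0.0187). Restricting the samples to the 39 mice with olfactory bulb markers at or under 10 CPM, chosen after seeing the data, gave 29, 27 and 28 changed genes, with calls lost for Pclo and Erc1 in TDP-PBS and TDP-10+12 and for Pclo, Syngr1 and Syngr3 in TDP-15. The cause was not tested. Rims2 in TDP-15 gained a call without ctrl-PBS mouse 2, 3 or 9 or TDP-15 mouse 9, Sv2a in TDP-10+12 without TDP-10+12 mouse 3 or TDP-PBS mouse 3, Pclo in TDP-10+12 lost its call without TDP-10+12 mouse 4, and Erc1 there without any of 5 mice. Counting cells or terminals was outside these data.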
